A study of Saccharomyces cerevisiae with 8 samples.

Results

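The 36 genes described here encode factors that assemble the large (60S) subunit of the cytosolic ribosome in the yeast Saccharomyces cerevisiae, or carry it out of the nucleus. They were chosen by standard gene name, and each was matched to its probe by systematic name. All 36 were found, each with 1 probe, among 6256 probes on the array, and all 36 are among the 5816 genes tested. The strain was BY4743, a diploid laboratory strain. Control cultures grew for 3 h in rich YPD medium without isopropanol (4 arrays), and treated cultures for 3 h in YPD with 40 g/l isopropanol (4 arrays). Both groups were shaken at 130 rpm and 30 °C in 120 ml of medium, and total RNA was labelled with the dye Cyanine 3 and hybridised to 1-colour Agilent arrays. The dose is given here in g/l, as in 3 of the label fields, although the sample descriptions of the treated cultures write mg/l. The series is about genes that matter for tolerance to isopropanol, and the comparison asks how transcript levels differed between treated and untreated cultures.

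A 60S subunit is built around 3 ribosomal RNAs. Its precursor starts in the nucleolus on a long RNA transcribed by RNA polymerase I, loses the spacers of that RNA while it folds, matures in the nucleoplasm, is exported through nuclear pores and is finished in the cytoplasm. Each step needs its own transient proteins, which bind, act and are recycled. In yeast the genes of these factors are known as part of the ribosome biogenesis regulon, whose transcripts rise and fall together with growth conditions. The factors are taken below in 7 roles: nucleolar scaffolds, factors of the spacer ITS2 and of the short RNA that precedes it, proteins with a Brix domain and their partners, RNA helicases, RNA methyltransferases, GTPases, and factors that travel with the subunit out of the nucleus.

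Levels are log2 signals after subtraction of the 75th percentile of the yeast spots on the same array, so that 0 is that percentile, and a change is the mean of the isopropanol arrays minus that of the control arrays. Levels of different probes are not comparable with each other. Each array held 6256 yeast probes in 2 spots each. The 75th percentile of signal lay between 1312 and 1678 intensity units on the control arrays and between 1802 and 2449 on the isopropanol arrays, and 92.3% to 95.9% of spots were well above background. No label ties arrays to separate cultures, so the spread behind each p-value is that between arrays and may be technical. Slide 1 carried the control arrays and slide 2 the treated ones, and their part in every comparison below cannot be told apart from that of the treatment. URA3 and LEU2, which BY4743 lacks, were well above background in 0 and 1 of 16 spot readings. Spike-in controls gave a second reference: on the spike-in scale every change is higher by 1.16 (log2), or by 0.75 without isopropanol replicate 1, whose mean spike-in level was -2.63, the other treated arrays having -1.10 to -0.88. That level was a mean of 6 spike-in probes and ran from -0.46 to 0.12 on the control arrays. The same offset of an array enters every gene, so calls of single genes on the spike-in scale are not separate results.

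Transcripts of 34 of the 36 assembly factor genes fell with isopropanol and 0 rose relative to the 75th percentile, but on the spike-in scale 0 fell and 6 rose (limma, adjusted p under 0.05). Over all genes 29.7% fell and 48.1% rose on the first scale, while on the second 0.327% fell and 78.2% rose. After median centring 36 of the 36 genes fell (42.1% of all genes fell and 34.5% rose), after quantile normalization 34 (38.4% and 35.2%) and with normexp background correction 32 (24% and 18.2%). The change of the 36 genes had a median of -0.46 (log2), a fold of 1.37, against 0.11 over all 5816 genes. It ran from -1.02 for NOP7 to -0.06 for MAK5. In 33 of the 36 genes every isopropanol array lay below every control array, where 27.4% of all genes did. Most changes were modest: 7 genes fell at least 1.5-fold (7.41% of all genes did) and 1 at least 2-fold (1.98% of all genes). On the spike-in scale the median of the 36 genes was 0.70, against 1.27 over all genes, and without isopropanol replicate 1 it was 0.31 against 0.87, with 9 genes higher and 0 lower (84.1% and 1.36% of all genes). The distance between the 36 genes and all genes was -0.57 on the percentile, median-centred and spike-in scales alike, since these differ by a constant per array. All 36 changes lay below the median change of all genes on each of these scales.

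**Figure D1:**
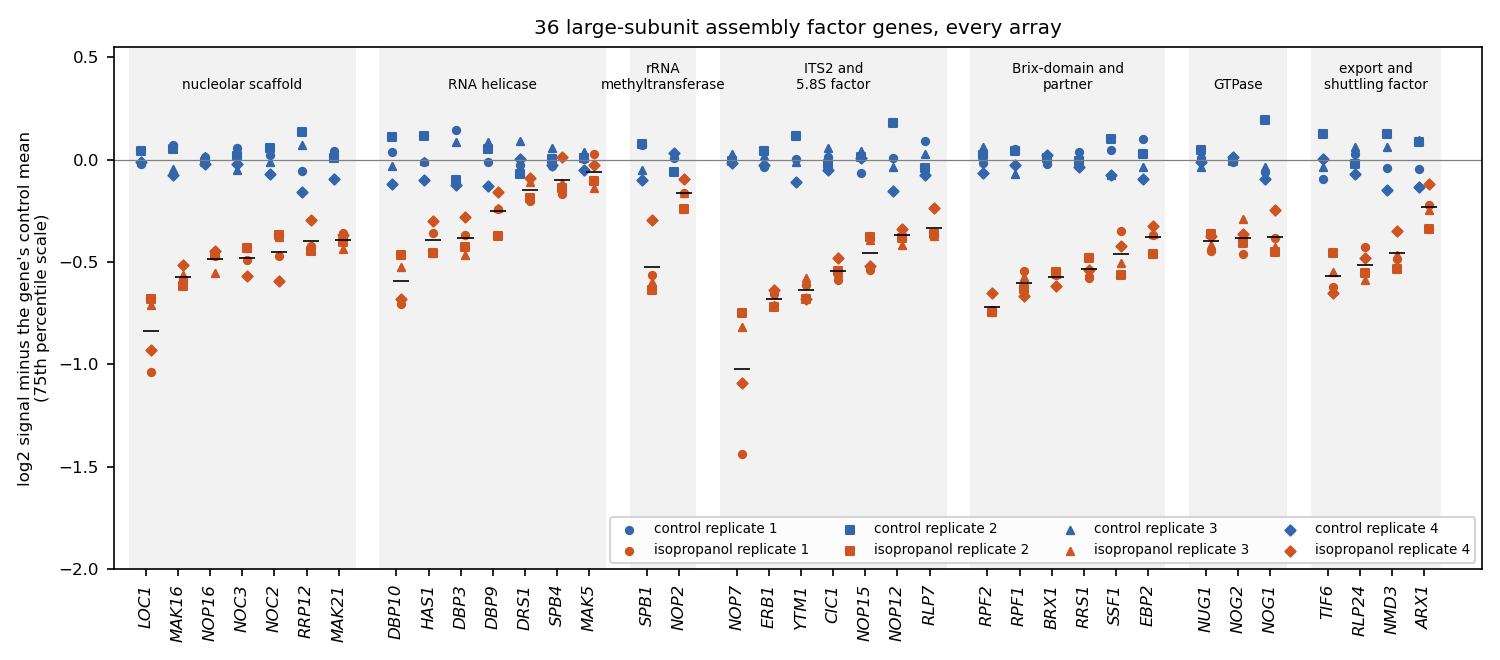
Log2 signal of each of the 36 genes on every array (y axis, 75th percentile scale) after subtraction of the gene's control mean, by role (x axis); blue points are the 4 control arrays, orange points the 4 isopropanol arrays, and black bars the isopropanol mean. On this scale the isopropanol points lie below the control points in 33 genes and overlap them for SPB4, MAK5 and ARX1, and on the spike-in scale every change is higher by 1.16.

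The factors of the ITS2 spacer held the largest change. All 7 fell on the 75th percentile scale, with a median of -0.54, and all 7 changes were above 0 on the spike-in scale, where none passed the test; without isopropanol replicate 1 NOP7 was at -0.13 there and RLP7 passed as higher (0.43). NOP7 (YGR103W) encodes a member of a complex with Erb1 and Ytm1 that is needed for processing of the precursor RNA that still holds ITS2. Its level was 1.78, 1.78, 1.81 and 1.77 on control replicates 1 to 4, and 0.35, 1.04, 0.97 and 0.69 on isopropanol replicates 1 to 4. The control arrays were almost equal, while the isopropanol arrays were spread over 0.69 log2 units, with replicate 1 lowest and replicates 2 and 3 highest, and the groups did not overlap. NOP7 fell 2.03-fold (log2 -1.02, SE 0.13; limma adjusted p = 3.31e-05), and by 0.89 (log2) without isopropanol replicate 1. ERB1 (YMR049C), which encodes its partner and binds Ytm1 in turn, stood at 1.40, 1.48, 1.45 and 1.41 in the control and at 0.78, 0.71, 0.72 and 0.80 with isopropanol. YTM1 (YOR272W), whose product is later pulled off the particle by the Rea1 ATPase, stood at 1.0, 1.12, 0.99 and 0.89 against 0.39, 0.32, 0.43 and 0.32. Both genes had tight groups far apart, and ERB1 fell 1.60-fold (log2 -0.68, SE 0.04; limma adjusted p = 1.27e-07) and YTM1 1.56-fold (log2 -0.64, SE 0.05; limma adjusted p = 1.59e-06). CIC1 (YHR052W) and NOP15 (YNL110C), which bind the ITS2 region, fell 1.46-fold and 1.37-fold. NOP12 (YOL041C), needed for the short RNA before ITS2 to fold, fell 1.29-fold, and RLP7 (YNL002C), which resembles ribosomal protein L7 and binds near ITS2, fell 1.26-fold. The falls of NOP12 and RLP7 did not pass with normexp background correction (adjusted p = 0.0502 and 0.123).

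Nucleolar scaffold genes fell in 7 of 7 cases relative to the 75th percentile (median -0.48), and none passed the test on the spike-in scale, where LOC1 was at 0.32, or at -0.02 without isopropanol replicate 1. LOC1 (YFR001W) encodes a nucleolar RNA-binding protein that serves 60S assembly and is also known for the localisation of ASH1 mRNA. Its level was 1.05, 1.12, 1.06 and 1.07 in the control and 0.04, 0.40, 0.37 and 0.15 with isopropanol. As for NOP7, isopropanol replicates 1 and 4 were lower than replicates 2 and 3, and no arrays of the groups overlapped. LOC1 fell 1.79-fold (log2 -0.84, SE 0.08; limma adjusted p = 3.22e-06). MAK16 (YAL025C), whose product joins early precursors, fell 1.49-fold, and NOP16 (YER002W), also for a nucleolar protein of the early particle, 1.40-fold. The Noc proteins form 2 alternating pairs: Noc1, encoded by MAK21 (YDR060W), binds Noc2 in the nucleolus, and Noc3 binds Noc2 later. MAK21 fell 1.31-fold, NOC2 (YOR206W) 1.37-fold and NOC3 (YLR002C) 1.40-fold. RRP12 (YPL012W), for a HEAT-repeat protein that acts in export of both subunits, fell 1.32-fold.

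Among proteins with a Brix domain and their partners 6 of 6 genes fell (median -0.55) on the 75th percentile scale. All 6 lay above 0 without passing on the spike-in scale, where the SE of each was 0.44. Rpf2 and Rrs1 bring the 5S RNA and its ribosomal proteins to the precursor. RPF2 (YKR081C) was at 0.93, 0.97, 1.01 and 0.88 on the control arrays and at 0.22, 0.21, 0.21 and 0.30 on the isopropanol arrays. The isopropanol arrays agreed within 0.10 log2 units, replicate 4 being the highest, and all were below the controls. RPF2 fell 1.65-fold (log2 -0.72, SE 0.04; limma adjusted p = 1.58e-07) and RRS1 (YOR294W) 1.45-fold. RPF1 (YHR088W), another Brix protein of the early particle, stood at 0.56, 0.55, 0.44 and 0.48 against -0.03, -0.12, -0.06 and -0.16. All of its isopropanol arrays were just under 0, and it fell 1.52-fold (log2 -0.60, SE 0.05; limma adjusted p = 8.42e-07). BRX1 (YOL077C) fell 1.49-fold and EBP2 (YKL172W), which encodes a binding partner of Brx1, 1.30-fold. SSF1 (YHR066W) fell 1.37-fold. Its paralog SSF2 (YDR312W) encodes a nearly interchangeable protein, and the probes of the pair may share signal. SSF2 fell 1.25-fold (adjusted p = 5.89e-05).

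RNA helicase genes held both of the genes that did not pass. Their DEAD-box proteins unwind RNA or remove proteins from the precursor. On the 75th percentile scale 5 of the 7 fell, 2 did not pass and the median was -0.25, whereas on the spike-in scale 4 rose. DBP10 (YDL031W) was at -0.15, -0.07, -0.21 and -0.30 in the control and at -0.89, -0.65, -0.71 and -0.86 with isopropanol. Isopropanol replicates 1 and 4 were again the lower ones, and the groups lay apart. DBP10 fell 1.51-fold (log2 -0.59, SE 0.07; limma adjusted p = 1.87e-05). HAS1 (YMR290C), for a helicase used by both subunits, fell 1.31-fold, DBP3 (YGL078C) 1.30-fold and DBP9 (YLR276C) 1.19-fold. DRS1 (YLL008W) had the smallest of the 5 falls, at 1.05, 1.01, 1.17 and 1.08 against 0.87, 0.89, 0.97 and 0.98. Its groups were separated by 0.02 log2 units, and the change of -0.15 (SE 0.05; limma adjusted p = 0.0157) was lost with normexp (adjusted p = 0.758), after quantile normalization (0.652) and when both control replicate 3 and isopropanol replicate 1 were left out (0.111).

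SPB4 and MAK5 were the helicase genes, and the only ones among the 36, that did not pass. SPB4 (YFL002C) was at -1.02, -0.98, -0.93 and -1.01 in the control and at -1.15, -1.12, -1.10 and -0.97 with isopropanol. Isopropanol replicate 4 lay inside the control range and the other 3 below it, for a change of -0.10 (95% interval -0.21 to 0.01; limma adjusted p = 0.0744). MAK5 (YBR142W) was at -0.71, -0.71, -0.67 and -0.76 against -0.69, -0.82, -0.85 and -0.74. Isopropanol replicates 2 and 3 were below every control array and replicates 1 and 4 were not, and the change was -0.06 (95% interval -0.16 to 0.04; limma adjusted p = 0.259). Both genes passed as lower after median centring (-0.26 and -0.22), quantile normalization (-0.23 and -0.16) and normexp (-0.18 and -0.19), and SPB4 also without isopropanol replicate 4 (-0.14). On the spike-in scale both passed as higher, at 1.06 and 1.10.

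The 2 methyltransferase genes both fell on the 75th percentile scale, by different amounts, and both changes were above 0 on the spike-in scale. SPB1 (YCL054W), for an enzyme that methylates ribose in the large-subunit RNA, stood at 1.34, 1.35, 1.22 and 1.17 in the control and at 0.71, 0.63, 0.67 and 0.98 with isopropanol. Isopropanol replicate 4 was well above the other 3 but still below every control array. SPB1 fell 1.44-fold (log2 -0.52, SE 0.08; limma adjusted p = 0.000119). NOP2 (YNL061W), for a cytosine methyltransferase of that RNA, fell 1.12-fold (log2 -0.16, SE 0.04; limma adjusted p = 0.00588), a call lost with normexp (adjusted p = 0.477). On the spike-in scale NOP2 passed as higher (1.0).

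The 3 GTPase genes had nearly the same change, between -0.40 and -0.38, relative to the 75th percentile, and all 3 were above 0 on the spike-in scale without passing. NUG1 (YER006W), for a nuclear GTPase needed for export of the subunit, was at 1.60, 1.63, 1.55 and 1.57 in the control and at 1.14, 1.22, 1.17 and 1.22 with isopropanol. Both groups were tight, and NUG1 fell 1.32-fold (log2 -0.40, SE 0.04; limma adjusted p = 5.4e-06). NOG1 (YPL093W) and NOG2 (YNR053C), for GTPases that bind the precursor in the nucleolus and nucleoplasm, each fell 1.30-fold. Without isopropanol replicate 1, NOG1 and NOG2 passed as higher on the spike-in scale (0.38 and 0.40).

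Factors that accompany the subunit out of the nucleus also fell on the 75th percentile scale in 4 of 4 cases (median -0.49), while on the spike-in scale 1 of them, ARX1, passed as higher (0.93). TIF6 (YPR016C) encodes a shuttling protein that keeps the subunits from joining too early. It stood at 2.45, 2.67, 2.51 and 2.55 in the control and at 1.92, 2.09, 2.0 and 1.89 with isopropanol, and control replicate 2 and isopropanol replicate 2 were the highest of their groups. TIF6 fell 1.48-fold (log2 -0.57, SE 0.06; limma adjusted p = 1.01e-05). RLP24 (YLR009W), for a stand-in that is later exchanged for ribosomal protein L24 in the cytoplasm, fell 1.43-fold. NMD3 (YHR170W), for the adaptor that carries the nuclear export signal read by the exportin Crm1, fell 1.37-fold. ARX1 (YDR101C), for an export factor that binds at the exit of the peptide tunnel, stood at 1.02, 1.16, 1.16 and 0.94 against 0.85, 0.73, 0.83 and 0.95. The groups touched, since isopropanol replicate 4 lay just above control replicate 4. ARX1 fell 1.17-fold (log2 -0.23, SE 0.06; limma adjusted p = 0.00795), but did not pass after quantile normalization (adjusted p = 0.14).

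**Figure D2:**
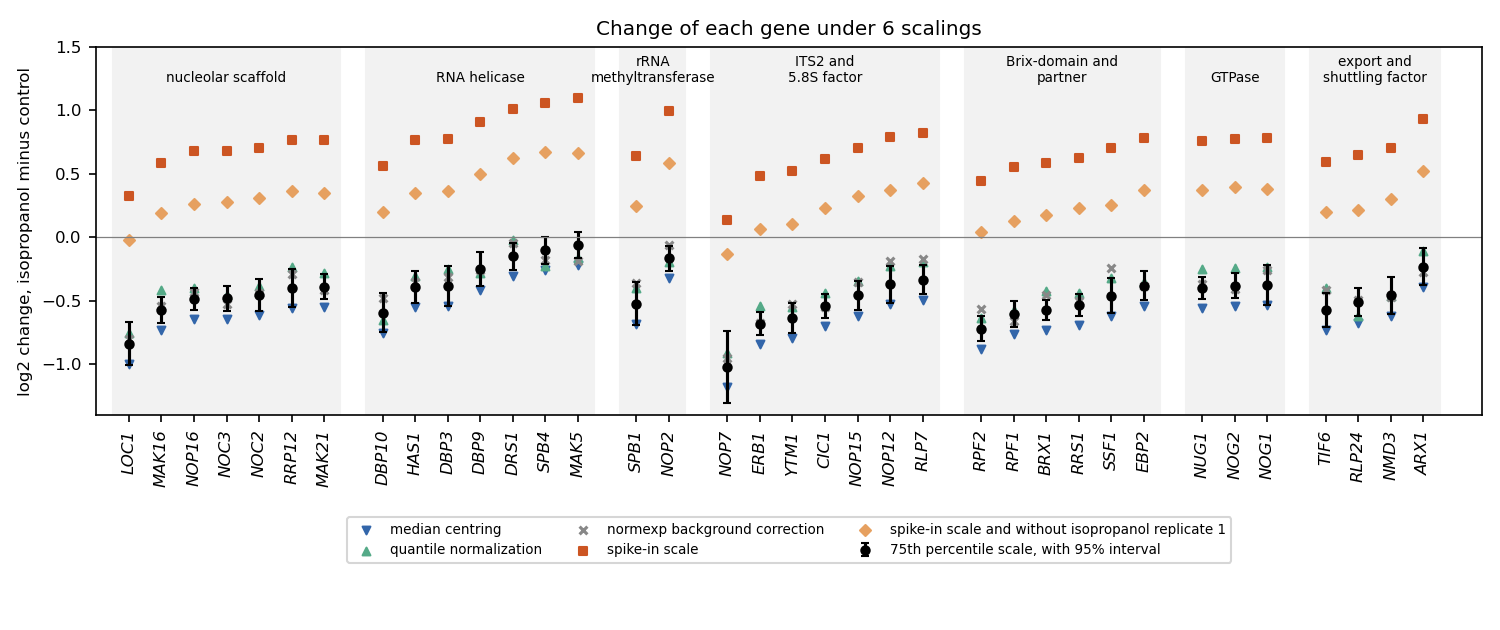
Log2 change of each of the 36 genes (y axis, isopropanol minus control, 4 arrays each) by role (x axis); black points with bars are the 75th percentile scale with its 95% interval, and coloured symbols are other scalings. The changes run from -1.02 for NOP7 to -0.06 for MAK5 on the first scale, and the spike-in scale moves every change up by 1.16 and turns all 36 above 0, of which NOP7 and LOC1 return below 0 without isopropanol replicate 1.

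The arrays themselves left a small mark on the set. Control replicate 4 was the lowest control array in 24 of the 36 genes and isopropanol replicate 4 the highest isopropanol array in 19. The median deviation of the 36 genes from their group mean was -0.07 on the first and 0.04 on the second, against 0.00 and 0.02 over all genes. Those 2 arrays also had the lowest 75th percentile signal of their groups (1312 and 1802 intensity units), and the part of this in the results was not tested. The median SD of the 36 genes was 0.06 in the control and 0.07 with isopropanol, as over all genes (0.06 and 0.08). Changes also went with brightness: split into 10 equal bins of mean signal, all genes had a median change of 0.54 in the dimmest bin and -0.28 in the brightest. The 36 genes sat in the 5 brighter bins, with 18 of them in the ninth, where their median was -0.47 and that of all genes -0.15. In the brightest bin 7 of them had a median of -0.46, against -0.28 for all genes. Of the 36 genes 35 had a change below the median of their bin, the exception being DRS1, and the median distance was -0.30.

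**Figure D3:**
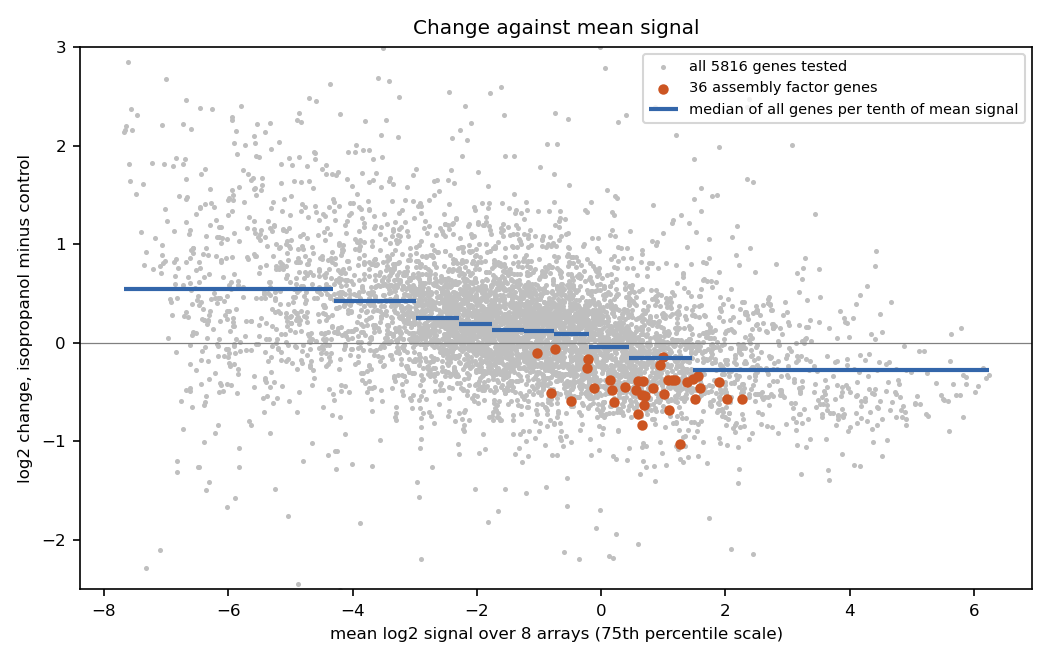
Log2 change (y axis, isopropanol minus control, 75th percentile scale) against mean log2 signal over 8 arrays (x axis) for the 5816 genes tested (grey, 26 of them outside the plotted range) and the 36 assembly factor genes (orange). Blue bars are the median change in each of 10 bins of signal, and 35 of the 36 orange points lie below the bar of their bin, on the spike-in scale too, where points and bars all move up by 1.16.

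Related gene lists showed similar falls on the 75th percentile scale, where 29.7% of all genes fell and 48.1% rose. In each of the 4 lists 0 genes fell on the spike-in scale, which is near the 0.327% of all genes that did. The share of all genes that rose there was 78.2%. In the lists 16 of 58 other 60S, 13 of 58 processome, 3 of 80 ribosomal protein and 1 of 7 polymerase I genes did. On the 75th percentile scale 45 of 58 other 60S assembly and export genes fell and 6 rose, with a median of -0.42. ECM1 (YAL059W), for an export factor, fell 2.30-fold (adjusted p = 1.87e-09), and RRP1 (YDR087C), for a nucleolar processing factor, 2.23-fold (adjusted p = 1.5e-08). Export carriers that serve more than the ribosome went both ways in this list: the exportin gene CRM1 (YGR218W) rose 1.34-fold and the mRNA export gene MEX67 (YPL169C) 1.22-fold, while MTR2 (YKL186C), for the partner of Mex67, fell 1.63-fold. The rise of MEX67 did not pass after median centring (adjusted p = 0.098) or with normexp (0.0631). BMT2 (YBR141C) and BMT6 (YLR063W), for base methyltransferases of large-subunit RNA, rose 1.32-fold and 1.27-fold, the latter not with normexp (adjusted p = 0.174). These 4 rises are the largest of the 6, and they and MTR2 were named after their values were seen.

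Of 58 small-subunit processome and snoRNP genes, whose products prepare the early precursor shared with the small subunit, 55 fell and 0 rose on the 75th percentile scale (median -0.43). Over all genes 29.7% fell and 48.1% rose on that scale. On the spike-in scale 0 of the 58 fell, near the 0.327% of all genes, and 13 rose, where 78.2% of all genes did. GAR1 (YHR089C) and UTP23 (YOR004W) fell most, 1.92-fold and 1.90-fold. Large-subunit ribosomal protein genes fell in 78 of 80 measured cases and rose in 1 (median -0.58), among them RPL42B (YHR141C) by 2.22-fold and RPL18B (YNL301C) by 2.20-fold. Many of them have near-identical copies whose probes may share signal, and quantile normalization left 63 lower and 1 higher. RNA polymerase I subunit genes fell in 7 of 7 cases (median -0.42), with RPA34 (YJL148W) at 1.62-fold and RPA43 (YOR340C) at 1.43-fold. The medians of the assembly lists lay between -0.46 and -0.42, and no difference between lists was tested.

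**Figure D4:**
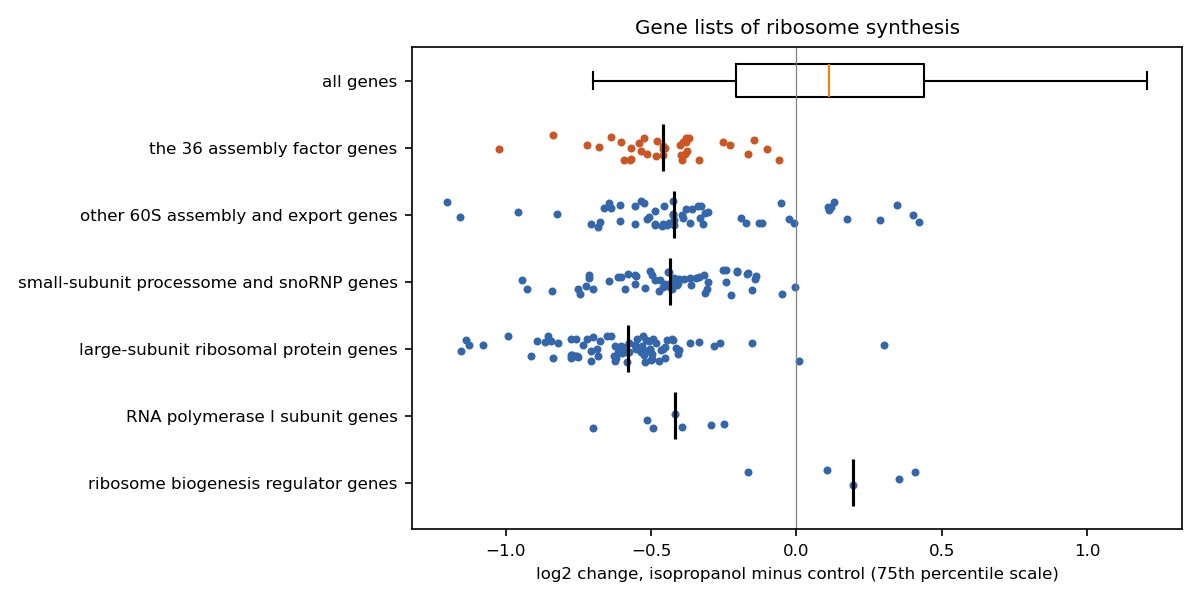
Log2 change (x axis, isopropanol minus control, 75th percentile scale) of each gene in 6 lists (points, black bar at the median) and of all 5816 genes (box from the lower to the upper quartile, whiskers at the 5th and 95th percentile). The medians of the assembly, polymerase and ribosomal protein lists lie between -0.58 and -0.42, that of the 5 regulators at 0.19 and that of all genes at 0.11, and all of these are higher by 1.16 on the spike-in scale.

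Of the genes of 5 regulators of this regulon, 0 passed as lower and 3 as higher on the percentile scale. On the spike-in scale 0 passed as lower and 5 as higher. Among all genes 29.7% fell and 48.1% rose on the first scale, and 0.327% and 78.2% on the second. The median change of the 5 genes was 0.19 on the percentile scale, near the 0.11 of all genes. A difference between these regulators and all genes was not tested. Sfp1 is an activator of ribosome biogenesis genes, Dot6, Tod6 and Stb3 are repressors that bind their promoters, and Sch9 is a kinase that acts on the repressors. STB3 (YDR169C) was at -2.91, -2.94, -2.96 and -3.00 in the control and at -2.47, -2.62, -2.60 and -2.48 with isopropanol. All isopropanol arrays were higher, and STB3 rose 1.33-fold (log2 0.41, SE 0.05; limma adjusted p = 1.88e-05), though not with normexp (adjusted p = 0.873). DOT6 (YER088C) was at 1.16, 1.24, 1.22 and 1.12 against 1.51, 1.67, 1.65 and 1.33, and rose 1.28-fold (adjusted p = 0.0011). SFP1 (YLR403W) was at -1.97, -1.93, -1.88 and -2.01 against -1.88, -1.80, -1.78 and -1.54. Its groups touched at isopropanol replicate 1, and SFP1 rose 1.14-fold (adjusted p = 0.0256), a call lost after median centring, after quantile normalization, with normexp, and without control replicate 1 or 4 (adjusted p = 0.0536 and 0.0655). TOD6 (YBL054W) was at 0.42, 0.34, 0.36 and 0.30 against 0.53, 0.46, 0.34 and 0.51, with isopropanol replicate 3 inside the control range. It had a change of 0.10 (95% interval -0.01 to 0.22; adjusted p = 0.0779), which was -0.06 after median centring and passed as higher after quantile normalization (0.18, adjusted p = 0.0105), without isopropanol replicate 3 (0.14, adjusted p = 0.0197) and on the spike-in scale (1.26, adjusted p = 0.0075). SCH9 (YHR205W) was at -1.95, -2.06, -2.13 and -2.15 against -2.07, -2.52, -2.42 and -1.95, with isopropanol replicates 2 and 3 below every control array and replicates 1 and 4 not. It had a change of -0.17 (95% interval -0.43 to 0.09; adjusted p = 0.215), passed as lower after median centring and quantile normalization and also without isopropanol replicate 4, and passed as higher (0.99) on the spike-in scale.

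Differences between 2 genes within an array do not depend on how arrays are scaled by a constant, and 10 pairs were compared in that way with a two-sided exact permutation test over 4 and 4 arrays. The smallest p this test can give is 0.0286, which becomes 0.0816 after Benjamini-Hochberg adjustment over the 10 pairs here, so no pair passed. The pairs were chosen with earlier results of these data known, so their p-values are a description. NMD3 and its receptor gene CRM1 moved furthest apart, by 0.88 log2 units (SE 0.05; exact p = 0.0286). NMD3 minus CRM1 lay between 0.85 and 1.05 on the control arrays and between 0.05 and 0.15 on the isopropanol arrays, with no overlap. RPF2 fell by 0.18 more than its partner RRS1 (SE 0.04; exact p = 0.0286), also without overlap, but by 0.06 more with normexp (exact p = 0.143). NOP7 fell by 0.34 more than ERB1 (SE 0.17; exact p = 0.0571) and by 0.39 more than YTM1 (SE 0.17; exact p = 0.0571), where the isopropanol arrays overlapped the control arrays. Differences were no larger than their errors for ERB1 minus YTM1 (-0.04, SE 0.05; exact p = 0.429), NOC3 minus NOC2 (-0.03, SE 0.03; exact p = 0.343) and MAK21 minus NOC2 (0.06, SE 0.07; exact p = 0.457). BRX1 fell by 0.19 more than EBP2 (SE 0.06; exact p = 0.0571), and SSF1 by 0.14 more than SSF2 (SE 0.06; exact p = 0.0571), a sign that turned with normexp and after quantile normalization.

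**Figure D5:**
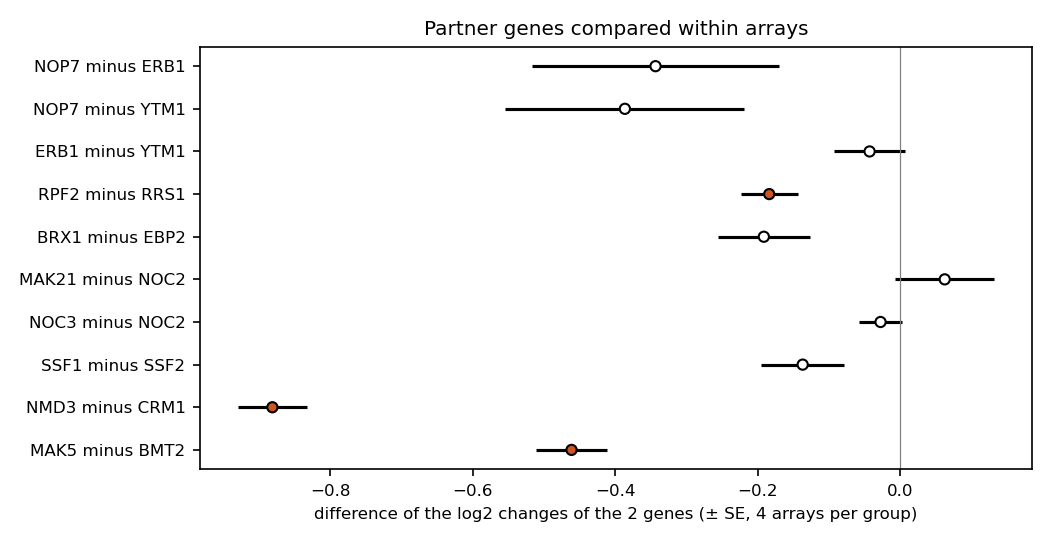
Difference between the log2 changes of 2 genes measured on the same arrays (x axis, with its SE as a bar, 4 arrays per group) for 10 pairs (y axis); filled points mark pairs whose isopropanol and control arrays do not overlap. NMD3 minus CRM1 lies at -0.88, MAK5 minus BMT2 at -0.46 and RPF2 minus RRS1 at -0.18, and these are the 3 filled points.

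Some of the 36 genes lie next to another gene of ribosome synthesis in the RefSeq annotation (R64), which was used only for gene order. Of the 5 such neighbours, 2 are transcribed away from the assembly factor gene. MAK5, with no call, shares its upstream region with BMT2, which was at -0.66, -0.65, -0.75 and -0.77 in the control and at -0.28, -0.26, -0.35 and -0.33 with isopropanol. The neighbours thus moved apart by 0.46 (SE 0.05; exact p = 0.0286, 0.0816 adjusted over the 10 pairs), with BMT2 higher on every isopropanol array. SSF1 shares its upstream region with the helicase gene RRP3 (YHR065C) of the small-subunit pathway, and both fell, by 1.37-fold and 1.31-fold. Each of the other 3 neighbours also fell on the 75th percentile scale: GAR1 beside RPF1, DBP8 (YHR169W) beside NMD3 by 1.39-fold and ESF2 (YNR054C) beside NOG2 by 1.15-fold. All 4 lay above 0 on the spike-in scale, GAR1 not without isopropanol replicate 1, and no pair of the 36 genes were direct neighbours.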

How the data were processed

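Agilent Feature Extraction 9.5.3.1, per the file headers (version 9 in the submitters' processing notes), produced the scanner tables the authors deposited. The deposited processed signal is an intensity with background subtracted and trends removed, per the file headers, with no scaling between arrays, and the median spot and background intensity, used with normexp, are unprocessed. The log2 table the authors deposited lies on the 75th percentile scale when compared with the scanner values (rank correlation at least 0.997 over 6256 probes, column medians -1.52 to -1.32), without gene centring and in the same direction, and was an alternative.

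Here, processed signals were taken to log2, the 75th percentile over the yeast spots of each array was subtracted, control spots and outlier-flagged spots (0 to 21 per array) were dropped, and duplicate spots were averaged. Probes stayed if both spots were well above background throughout at least 1 group, and the brightest probe stood for a gene. No spot was saturated. Of 6256 probes 5765 matched a RefSeq locus tag. Isopropanol was tested against control with limma 3.58.1 (R 4.3.3), adjusted by Benjamini-Hochberg over 5816 genes at 0.05, after a check on simulated data. The number of arrays limits the precision.

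The 36 genes, the lists and the pairs were chosen with earlier results of these data known, so counts over a list and p-values of pairs are a description. Values array by array are given for the largest change in each role, the 6 largest and 3 smallest over all, those that did not pass and the regulators. From each other list the largest changes that passed are named by fold. ARX1 and BMT2 array by array, and SSF2, MTR2, the rising genes of the other 60S list and the neighbours by fold, were added after their values were seen. Promoters and proteins are not analysed here. Replicate numbers in the titles are not said to pair cultures, so arrays were not paired in the main test. Deviations of arrays with the same number correlated between -0.16 and 0.04, which cannot show whether the cultures were paired.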

Additional observations from a re-analysis of the deposited data

Results flagged for a closer look

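In a group of 4 arrays, 1 array stood far from the other 3 in 4 of 116 groups examined, where chance gives about 1 in 20. All 4 were isopropanol replicate 4. RPF2 was at 0.30 on that array, against 0.21 to 0.22 on the others. RRP12 was at 1.80, against 1.65 to 1.68, and RLP7 at 1.5, against 1.36 to 1.37. BMT6 was at -1.32, against -1.14 to -1.11. In the first 3 genes the array lay nearer to the control arrays than the others did, and in BMT6, which rose, it did so too.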

How the results depend on the processing

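The count of 34 lower and 0 higher genes among the 36 was 34 to 35 and 0 to 0 when each array was left out in turn, and their median change ran from -0.48 to -0.43. It was 32 lower with normexp, 36 after median centring and 33 when both control replicate 3 and isopropanol replicate 1 were left out, an alternative added after seeing the data. The replicate block left 34 lower and a median of -0.46, and changed no call of a gene named in the text. The median moved to -0.37 after quantile normalization and to -0.62 after median centring, and turned to 0.70 on the spike-in scale and to 0.31 there without isopropanol replicate 1, with 0 lower in both and 6 and 9 higher. Over all 21 alternatives the median of the 36 genes lay below that of all genes, by 0.33 to 0.59, and 34 to 36 of the 36 changes lay below it. Counts of lower genes on the 2 spike-in scales were 19 and 79 over all genes, 0 and 2 among other 60S genes, 0 and 0 among processome genes, 0 and 2 among ribosomal protein genes and 0 and 0 among polymerase I genes. Counts of higher genes were 4548 and 4894 over all genes, and 1061 with normexp against 2796. Leaving out each array in turn gave 1655 to 1752 lower and 2702 to 2794 higher genes over all, 44 to 46 lower among other 60S genes, 54 to 56 in the processome list, 77 to 78 in the ribosomal protein list and 7 to 7 in the polymerase list. For the 36 genes one by one, under settings other than a left-out array or a spike-in scale, direction and call held in 348 cases, the call was lost in 6 and gained in 6. All of these lost and gained calls came with normexp, quantile normalization or median centring. The probe filters, the mean of a gene's probes, an intensity trend in limma and the replicate block could not move the change of these genes, which have 1 probe each. Their median stayed at -0.46 there, so the 348 cases are not all separate checks. Given as the log2 change over all arrays and then without isopropanol replicate 1, the spike-in scale put the ITS2 factors at NOP7 0.14 and -0.13, ERB1 0.48 and 0.0662, YTM1 0.52 and 0.11, CIC1 0.62 and 0.23, NOP15 0.70 and 0.32, NOP12 0.79 and 0.37, RLP7 0.83 and 0.43. Nucleolar scaffolds stood there at LOC1 0.32 and -0.0177, MAK16 0.59 and 0.19, NOP16 0.68 and 0.27, NOC3 0.68 and 0.28, NOC2 0.71 and 0.31, RRP12 0.76 and 0.37, MAK21 0.77 and 0.35. Brix-domain genes and partners had RPF2 0.44 and 0.0409, RPF1 0.56 and 0.13, BRX1 0.59 and 0.18, RRS1 0.63 and 0.23, SSF1 0.70 and 0.26, EBP2 0.78 and 0.37. The helicase genes had DBP10 0.57 and 0.20, HAS1 0.77 and 0.35, DBP3 0.78 and 0.37, DBP9 0.91 and 0.50, DRS1 1.01 and 0.62, SPB4 1.06 and 0.67, MAK5 1.10 and 0.66. Methyltransferase genes were at SPB1 0.64 and 0.24, NOP2 1.0 and 0.59. For the GTPase genes it gave NUG1 0.76 and 0.37, NOG2 0.78 and 0.40, NOG1 0.78 and 0.38. The export factors were at TIF6 0.59 and 0.20, RLP24 0.65 and 0.21, NMD3 0.70 and 0.31, ARX1 0.93 and 0.52. Outside the 36 genes the same pair of values was DBP8 0.69 and 0.28, ESF2 0.96 and 0.55, GAR1 0.22 and -0.19, MTR2 0.45 and 0.0401, RPA34 0.46 and 0.12, RPA43 0.65 and 0.26, RPL18B 0.0227 and -0.43, RPL42B 0.0074 and -0.39, RRP1 0.0023 and -0.40, RRP3 0.77 and 0.39, SCH9 0.99 and 0.53, SSF2 0.84 and 0.41, UTP23 0.23 and -0.16. TOD6 turned to -0.0554 after median centring, the difference of ERB1 and YTM1 to 0.0095 after quantile normalization, and that of SSF1 and SSF2 to 0.0692 with normexp and 0.0755 after quantile normalization. All 36 genes were well above background on all 8 arrays, so dim signal limits none of their calls at the filter used. The cause of these turns, beyond the constant shift of the spike-in scale, was not tested.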
